A study of Mus musculus with 48 samples.

Results

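Il10, Ebi3, Fgl2, Nt5e and Entpd1 encode secreted or enzymatic molecules that regulatory T cells (Tregs) can use to suppress other cells. They were chosen by gene symbol for that role, with earlier results of these data known, so their directions are not independent evidence. All 5 of them, of the 53345 genes in the expression tables, were measured in every library and passed the filter on low counts. The study asked how IL-2 and weakened forms of it (muteins) change Tregs in mice, and how far that depends on the T cell receptor (TCR) signal. Female C57BL/6 mice of 8 to 12 weeks, an inbred strain with no transgene, received 2 intraperitoneal doses of 500 µg of an isotype control antibody or of an antibody blocking MHC class II, on day -1 and day 0. On day 0 each mouse was also injected under the skin, with PBS or with 25 µg of an IL-2 molecule (WT IL-2, H16R or 3x), and spleens were taken on day 4. All 3 molecules are human IL-2 fused to a human IgG1 Fc part without effector function; H16R carries 1 substitution, as its name says, and 3x carries 3. Tregs were the cells that bound in the CD25 selection step of a bead kit and Tcons were the flow-through, so neither was sorted on Foxp3. The authors stained small aliquots for Foxp3, among other markers, and report a high share of Foxp3+ cells in most samples after purification. The 8 groups had 4 mice each for Tregs (32 libraries), and Tcons were sequenced from 2 mice of each group (16 libraries).

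IL-10, the product of Il10, is a cytokine that restrains myeloid cells and T cells through a receptor made of IL-10Ra and IL-10Rb, which signals through JAK1, TYK2 and STAT3. Ebi3 encodes a soluble subunit that forms IL-27 together with the product of Il27 and IL-35 together with the product of Il12a. Fgl2 encodes a fibrinogen-like protein that Tregs can secrete and that binds the inhibitory receptor FcγRIIB on antigen-presenting cells. Entpd1 encodes CD39 and Nt5e encodes CD73, enzymes on the cell surface that act in sequence: CD39 removes phosphates from extracellular ATP and ADP, and CD73 converts the resulting AMP to adenosine, which acts on T cells through the receptor encoded by Adora2a. None of the 5 genes is restricted to Tregs, as Il10, Ebi3 and Fgl2 are also used by B lineage, dendritic or myeloid cells.

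The 5 genes lie on 5 chromosomes of the GRCm38 build: Il10 at chr1:131019845-131024974, Ebi3 at chr17:55952640-55957022, Fgl2 at chr5:21372642-21378374, Nt5e at chr9:88327197-88372092 and Entpd1 at chr19:40612366-40741602, all on the plus strand. RefSeq promoter windows (build GRCm38.p6, 250 bases before to 50 bases after the start of transcription) matched 4 of the 5 genes (Ebi3, Fgl2, Nt5e and Entpd1). The windows were searched on both strands for the AP-1 motif TGANTCA, a site type used by factors downstream of the TCR, and for the STAT motif TTCNNNGAA, a site type used by factors downstream of IL-2. The windows of Fgl2 and Ebi3 are shown because Fgl2 rose and Ebi3 fell with both muteins; capitals mark motif matches.
Fgl2 (chr5:21372423-21372722, plus strand): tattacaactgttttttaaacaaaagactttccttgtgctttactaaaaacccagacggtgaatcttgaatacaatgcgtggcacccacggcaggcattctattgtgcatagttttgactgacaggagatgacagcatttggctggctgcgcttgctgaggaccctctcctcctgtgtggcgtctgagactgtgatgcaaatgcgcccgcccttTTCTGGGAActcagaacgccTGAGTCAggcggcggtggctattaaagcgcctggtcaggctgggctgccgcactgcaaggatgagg
Ebi3 (chr17:55952373-55952672, plus strand): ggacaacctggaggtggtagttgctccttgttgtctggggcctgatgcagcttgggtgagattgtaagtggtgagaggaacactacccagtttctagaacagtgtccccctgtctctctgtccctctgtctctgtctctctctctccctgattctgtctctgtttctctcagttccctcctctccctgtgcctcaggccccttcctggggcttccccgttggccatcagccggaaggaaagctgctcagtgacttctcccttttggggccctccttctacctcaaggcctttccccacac
The Fgl2 window held 1 match to each motif, starting at positions -36 (STAT) and -16 (AP-1) from the RefSeq start of transcription that set the window. The gene span given above for Fgl2, from another annotation, begins upstream of that start, so positions counted from it would differ. The Ebi3 window, the Nt5e window and both Entpd1 windows held 0 matches to either motif. Of the 32851 windows in the table, 7.81% held the AP-1 motif and 8.30% held the STAT motif. A match describes the letters only, and neither motif overlapped the other.

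Libraries held 18.28 to 51.24 M expected counts in Tregs and 31.31 to 51.95 M in Tcons. Levels within a gene are given as CPM, the count scaled to a library total of 1 M, and levels between genes as FPKM, which also divides by transcript length. The labelled cell types were checked against Foxp3, Il2ra and Ikzf2, whose summed level was 1614.6 to 2780.5 CPM in Tregs and 196 to 758 CPM in Tcons, so that Tcons still held Treg transcripts. The Tcon library with 758 CPM was isotype WT IL-2 replicate 2, which stood apart from the other Tcons. In Tregs, the summed level of 8 B cell markers was 34.4 to 799 CPM. The highest B cell values were 799 CPM in isotype PBS replicate 1 and 718 CPM in MHC II block WT IL-2 replicate 1, and the latter library also had 867 CPM of 11 myeloid markers, against 46.2 to 103 CPM in the rest of its group. Values without both of these Treg libraries, an alternative chosen after seeing the data, are given with the results they could bear on, and values without that Tcon library with the differences from PBS in Tcons.

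IL-2 changed the 5 genes in different directions, and Il10 changed most. In isotype-treated mice, Il10 rose 4.39-fold with WT IL-2, 5.06-fold with H16R and 3.39-fold with 3x, each against PBS. Fgl2 and Entpd1 rose with all 3 molecules, Nt5e rose with WT IL-2 and H16R, and Ebi3 fell with H16R and 3x. By edgeR's quasi-likelihood test at an adjusted p under 0.1, 4 of 5 genes were called with WT IL-2 (4 higher, 0 lower), where 52.2% of the 12392 genes tested were called (26.0% higher, 26.2% lower). With H16R, 5 of 5 were called (4 higher, 1 lower) against 64.2% of all genes (31.4% higher, 32.8% lower). With 3x, 4 of 5 were called (3 higher, 1 lower) against 63.6% (31.3% higher, 32.3% lower). The 3 comparisons share the same PBS mice. The median log2 fold change of the 5 genes was 0.60, 0.73 and 0.65 with WT IL-2, H16R and 3x, while the median of all genes tested was -0.01 in each. So many genes changed that the number called says little about these 5, and their sizes and directions are described below.

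**Figure D1:**
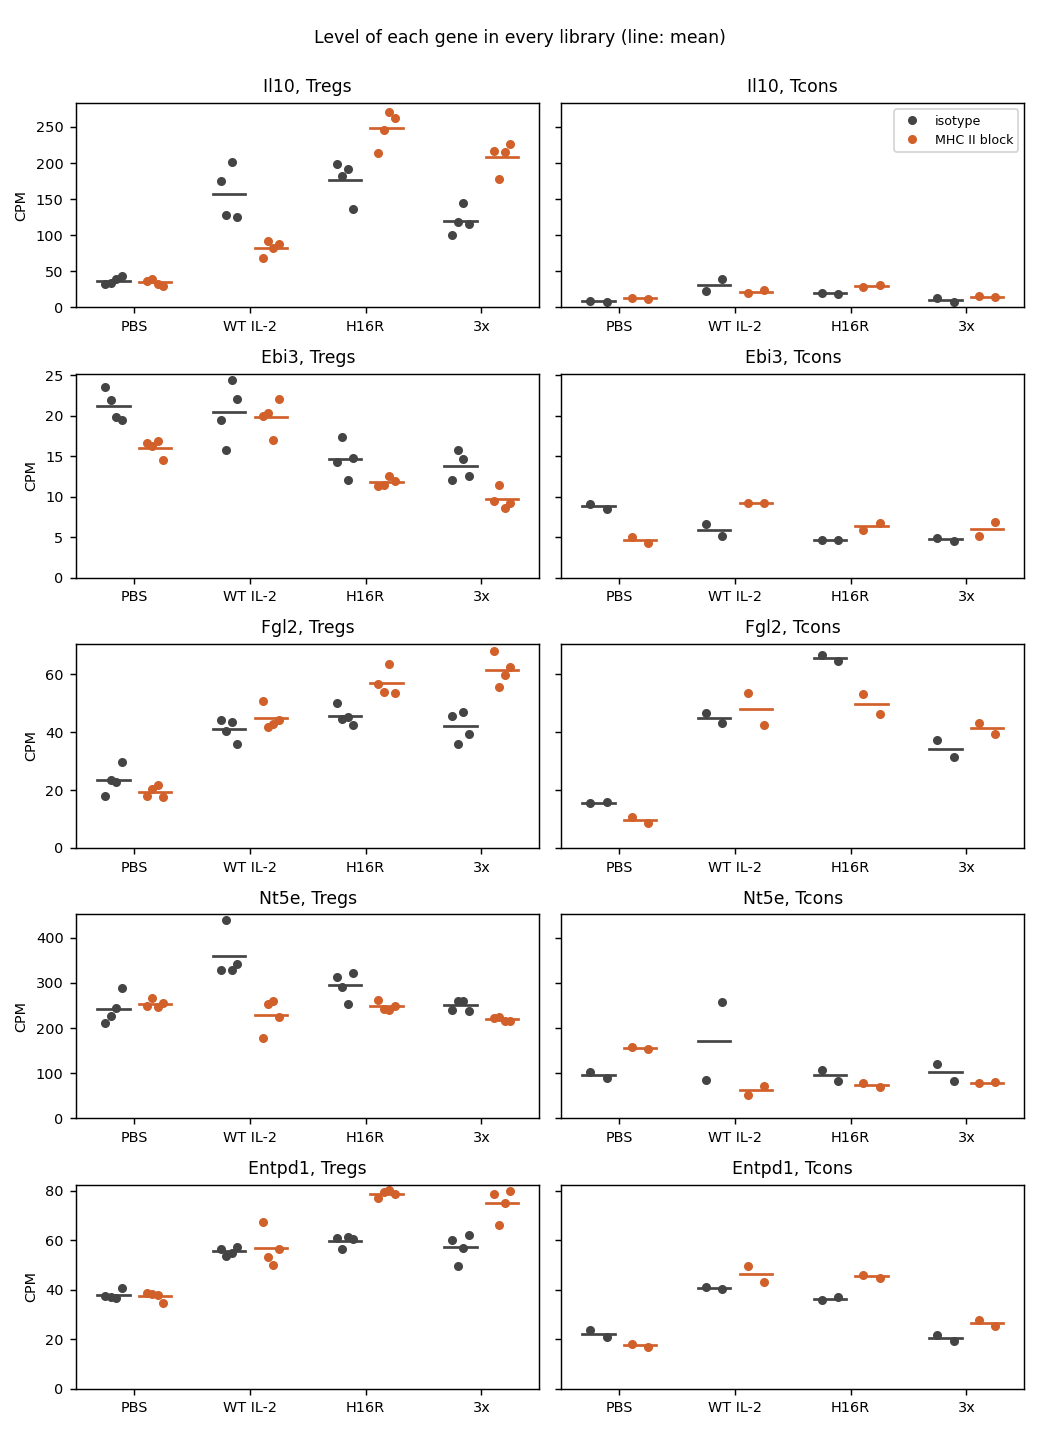
Level in CPM (vertical axis, from 0) of the 5 genes in each of 32 Treg libraries (left) and 16 Tcon libraries (right), by treatment, with isotype in dark grey and MHC II block in orange; points are libraries and lines are group means. In Tregs, all Il10 values with an IL-2 molecule, 67.9 to 271 CPM, lay above those with PBS, 29.8 to 43.1 CPM.

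Under the blocking antibody, the rise of Il10 over PBS was smaller with WT IL-2 and larger with the muteins. Against PBS mice given the same blocking antibody, Il10 rose 2.48-fold with WT IL-2, 7.52-fold with H16R and 6.23-fold with 3x. Fgl2 rose 2.38-, 3.05- and 3.24-fold and Entpd1 rose 1.57-, 2.19- and 2.05-fold in the same order. In this arm 4 of 5 genes were called with WT IL-2 (4 higher), where 35.6% of all genes were called (21.9% higher, 13.7% lower). With H16R 4 were called (3 higher, 1 lower), against 66.5% (32.7% higher, 33.8% lower), and with 3x also 4 (3 higher, 1 lower), against 73.0% (34.7% higher, 38.3% lower). Nt5e was the gene not called, with any of the 3 molecules. The median of the 5 genes was 0.65, 1.13 and 1.04 on the log2 scale, against 0.02, -0.02 and -0.04 over all genes. With both libraries rich in B cell transcripts left out, the log2 rise of Il10 over PBS was 2.08, 2.28 and 1.70 in isotype mice and 1.39, 2.91 and 2.64 under block, and all were called.

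**Figure D2:**
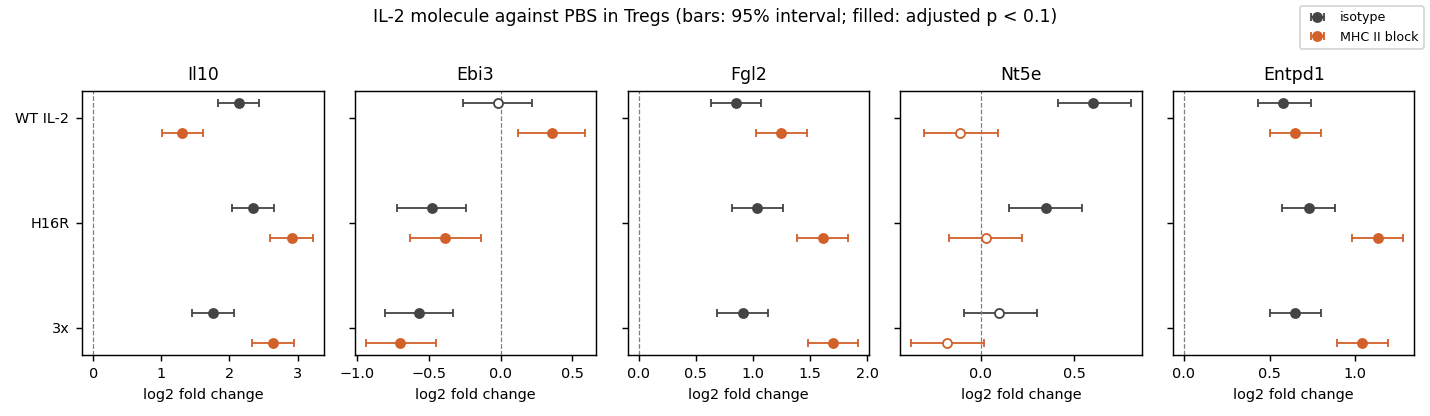
Log2 fold change (horizontal axes, scaled by gene) of each IL-2 molecule against PBS in Tregs, by antibody arm, with 95% intervals from the model; filled points have an adjusted p under 0.1. Il10 with MHC II block ranged from 1.31 with WT IL-2 to 2.91 with H16R.

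Beside these changes, markers of other cells moved between the groups. In isotype mice the 8 B cell markers summed to 145 to 799 CPM with PBS, 64.2 to 111 CPM with WT IL-2, 35.3 to 48.3 CPM with H16R and 34.4 to 46.5 CPM with 3x. The 5 plasma cell markers (such as Jchain and Mzb1) fell from 1667.3 to 2006 CPM with PBS to 173 to 263 CPM with 3x, and 5 of 5 were called lower with 3x, where 32.3% of all genes were. Under MHC II block they were higher than with isotype: 5 of 5 were called higher in WT IL-2-, H16R- and 3x-treated mice (median log2 differences 1.80, 1.52 and 2.99), and their sum was 1710.3 to 3446.8, 664 to 1372.5 and 718 to 1538.4 CPM in the same order. Of all genes, 18.2%, 15.4% and 27.2% were called higher there. In these comparisons Il10 fell with WT IL-2 and rose with both muteins. The 6 dendritic cell markers were also higher under block, where 6, 4 and 5 of them were called in the same order, against those shares of all genes. Their sums were 5.91 to 15.2 CPM in isotype IL-2 groups and 21.3 to 95.6 CPM in blocked IL-2 groups. With PBS they were 23.9 to 48.4 CPM with isotype and 19.7 to 32.6 CPM with block. Of 5 NK cell markers 5, 4 and 3 were higher, against the same shares, with sums of 10.0 to 23.6 CPM and 23.5 to 67.5 CPM. With PBS the NK sums were 33.0 to 49.1 CPM with isotype and 29.0 to 39.2 CPM with block. In blocked mice the B cell markers were at 87.4 to 178 CPM with PBS, 103 to 718 CPM with WT IL-2, 59.7 to 98.6 CPM with H16R and 65.6 to 143 CPM with 3x. The sum of Foxp3, Il2ra and Ikzf2 also differed, at 1636.4 to 1871.1 CPM with isotype PBS and 2272.5 to 2780.5 CPM with isotype and an IL-2 molecule. This sum in blocked mice was 1787.4 to 1979.7 CPM with PBS, 1614.6 to 2224.7 CPM with WT IL-2 and 2257.3 to 2760.2 CPM with the muteins. The part of these shifts in the levels of the 5 genes was not tested, and in bulk libraries fewer cells of a type and less RNA per cell cannot be told apart. Without isotype PBS replicate 1 and MHC II block WT IL-2 replicate 1, 26 of the 30 pairs of gene and comparison against PBS were called, where 25 were called with all libraries.

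Il10 was the second most expressed of the 5 genes per length in Tregs of isotype PBS mice, at 27.8 ± 3.9 FPKM (SD, n = 4) after Nt5e at 60.2 ± 8.27 FPKM. With isotype PBS its level was 32.2, 32.9, 38.8 and 43.1 CPM, and with MHC II block and PBS it was 36.6, 38.7, 32.4 and 29.8 CPM. These 2 groups overlapped, and the difference was -0.11 on the log2 scale (95% interval -0.42 to 0.20, adjusted p = 0.707). With isotype and WT IL-2 the level was 175, 128, 202 and 125 CPM, and with MHC II block it was 67.9, 91.6, 82.2 and 87.7 CPM. The groups did not overlap, and MHC II block lowered Il10 1.92-fold in WT IL-2-treated mice (log2 -0.94, SE 0.14, adjusted p = 1.89e-05), though it remained above PBS. Leaving out any single Treg library kept this difference between -1.05 and -0.79, and without both libraries rich in B cell transcripts it was -0.86 (adjusted p = 0.000134).

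The muteins went the other way. With H16R, Il10 was at 199, 182, 191 and 136 CPM with isotype and at 214, 246, 271 and 262 CPM with MHC II block. With 3x it was at 100, 118, 144 and 115 CPM with isotype and at 216, 178, 215 and 227 CPM with MHC II block. Within each mutein every blocked mouse was above every isotype mouse, and MHC II block raised Il10 1.37-fold with H16R (log2 0.46, SE 0.14, adjusted p = 0.0193) and 1.70-fold with 3x (log2 0.77, SE 0.14, adjusted p = 7.36e-05). Ordered by mean FPKM, the 8 Treg groups ran from MHC II block H16R (188 ± 19.1) through MHC II block 3x (158 ± 16.3), isotype H16R (134 ± 21.3), isotype WT IL-2 (119 ± 28.5), isotype 3x (90.2 ± 13.6) and MHC II block WT IL-2 (62.3 ± 7.85) to isotype PBS (27.8 ± 3.9) and MHC II block PBS (26 ± 3.04). In this order isotype 3x and MHC II block WT IL-2 did not overlap, nor did MHC II block WT IL-2 and isotype PBS, while each other pair of neighbours did.

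Compared at the same dose and day, the molecules differed in Il10 by arm. With isotype, H16R and WT IL-2 differed by 0.20 on the log2 scale (95% interval -0.08 to 0.49, adjusted p = 0.361), and 3x was lower than H16R by -0.58 (SE 0.14, adjusted p = 0.0107). The difference between 3x and WT IL-2, -0.37 (SE 0.14, adjusted p = 0.0452), was not called without isotype WT IL-2 replicate 1 (-0.32, adjusted p = 0.116) or 3a (-0.23, adjusted p = 0.241), nor without isotype 3x replicate 1 (-0.30, adjusted p = 0.159) or 4 (-0.36, adjusted p = 0.103). In blocked mice, H16R was 3.03-fold and 3x 2.51-fold above WT IL-2 (log2 1.60 and 1.33, SE 0.14 each, adjusted p = 3.38e-09 and 1.12e-08), and 3x and H16R differed by -0.27 (95% interval -0.56 to 0.01, adjusted p = 0.183). The last was called when only the groups compared were fitted (-0.28, adjusted p = 0.0507). Leaving out both libraries rich in B cell transcripts gave 1.52 and 1.25 for H16R and 3x over WT IL-2 in that arm, both called.

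The dependence on the antibody was tested directly as an interaction. The rise of Il10 over PBS was smaller under MHC II block by -0.83 on the log2 scale with WT IL-2 (SE 0.21, adjusted p = 0.00658) and larger by 0.88 with 3x (SE 0.21, adjusted p = 0.0023). For H16R the interaction was 0.57 (SE 0.21, adjusted p = 0.0688), and it was not called without isotype PBS replicate 3 (0.54) or 4 (0.49), isotype H16R replicate 4 (0.46), MHC II block PBS replicate 3 (0.55) or 4 (0.52), or MHC II block H16R replicate 3 (0.53) or 4 (0.54), each left out alone. Set against WT IL-2, the signed log2 difference of mutein minus WT IL-2 was higher under MHC II block by 1.40 for H16R, going from 0.20 to 1.60 (SE 0.20, adjusted p = 5.17e-05), and by 1.70 for 3x, which went from below WT IL-2 with isotype (-0.37) to above it under block (1.33; SE 0.20, adjusted p = 3.41e-07). Without both libraries rich in B cell transcripts these 5 interactions were -0.69, 0.94, 0.63, 1.32 and 1.63 in the order given, and all were called. In these 5 interaction contrasts, over the 5 genes, 3 of 5 genes were called for WT IL-2, H16R and 3x against PBS and for H16R against WT IL-2, and 5 of 5 for 3x against WT IL-2. The shares over all genes were 19.7% (11.7% positive, 7.98% negative), 19.1% (10.6% and 8.47%), 39.0% (20.3% and 18.7%), 23.5% (12.6% and 10.9%) and 43.8% (20.7% and 23.0%) in the same order.

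Across the 4 treatments, MHC II block against isotype called 1 of 5 genes with PBS, 2 with WT IL-2 and 5 with each mutein, where, in the order PBS, WT IL-2, H16R and 3x, 14.1% (6.00% higher, 8.13% lower), 33.6% (18.2% and 15.3%), 30.7% (15.4% and 15.2%) and 54.1% (27.2% and 26.9%) of all genes were called. With PBS the gene was Ebi3, which was lower, and with WT IL-2 the genes were Il10 and Nt5e, both lower. With each mutein Il10, Fgl2 and Entpd1 were higher and Ebi3 and Nt5e lower. The isotype mice of a treatment entered both this comparison and that against PBS.

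**Figure D3:**
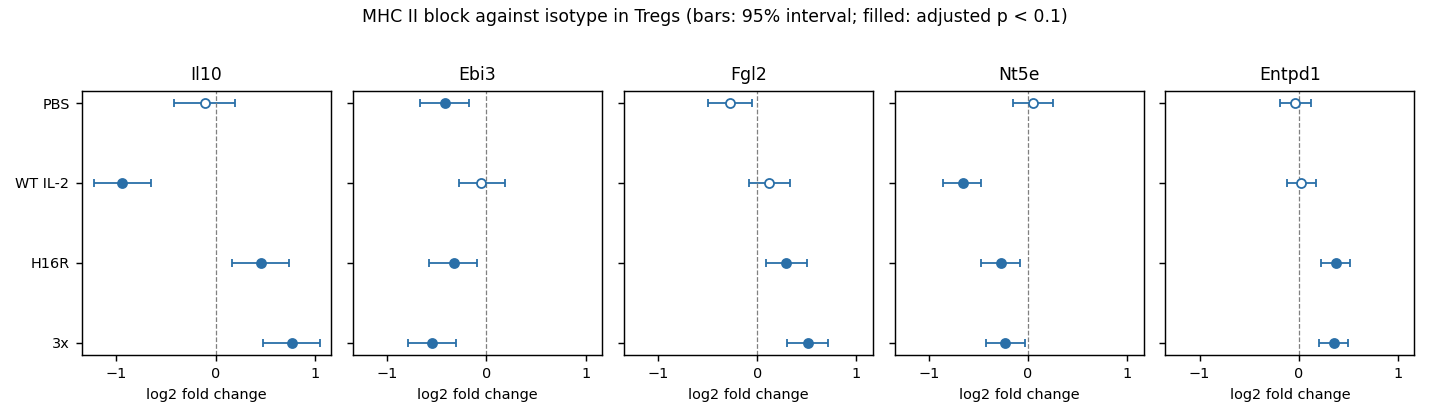
Log2 fold change (horizontal axis, the same for all genes) of MHC II block against isotype in Tregs within each treatment, with 95% intervals; filled points have an adjusted p under 0.1. Il10 lay at -0.94 with WT IL-2 and at 0.77 with 3x, and Entpd1 at 0.02 and 0.35.

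Genes of the IL-10 receptor and of the control of Il10 were read as a list of 16, all of which passed the filter. The list was drawn up with earlier results of these data known, so its direction is not independent evidence. In isotype mice 11 of 16 rose and 0 fell with WT IL-2, 11 rose and 2 fell with H16R, and 8 rose and 2 fell with 3x, with medians of 0.20, 0.32 and 0.12 against -0.01 for all genes. The shares of all genes called there were 52.2%, 64.2% and 63.6%. Il10ra, the ligand-binding receptor chain, rose from 24.3 ± 2.25 FPKM with isotype PBS to 46.8 ± 2.79 FPKM with WT IL-2 (log2 0.98). Prdm1, the gene of Blimp-1, rose by 1.14 and Maf, a transcription factor that binds the Il10 locus, by 1.12 with WT IL-2. With 3x, Prdm1 rose by 0.75 and Maf by 1.01.

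The effect of MHC II block on the list differed in its counts by molecule. Against isotype, 13 of the 16 genes fell and 0 rose in WT IL-2-treated mice (median -0.29, all genes 0.01). In H16R-treated mice 3 rose and 4 fell (median -0.05), and in 3x-treated mice 7 rose and 5 fell (median 0.02). Of all genes 33.6%, 30.7% and 54.1% were called in these comparisons. Prdm1 fell by 0.32 with WT IL-2 and rose by 0.40 with H16R and by 0.93 with 3x, and Maf changed by -0.42, 0.31 and 0.76. Batf, an AP-1 family factor, fell by 0.68 with WT IL-2 and rose by 0.61 with 3x, and was at 0.13 (not called) with H16R. Nfil3 and Bhlhe40, which encode other transcription factors, fell with all 3 molecules, by 1.07, 0.38 and 0.29 for Nfil3 and by 0.67, 0.28 and 0.45 for Bhlhe40.

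**Figure D4:**
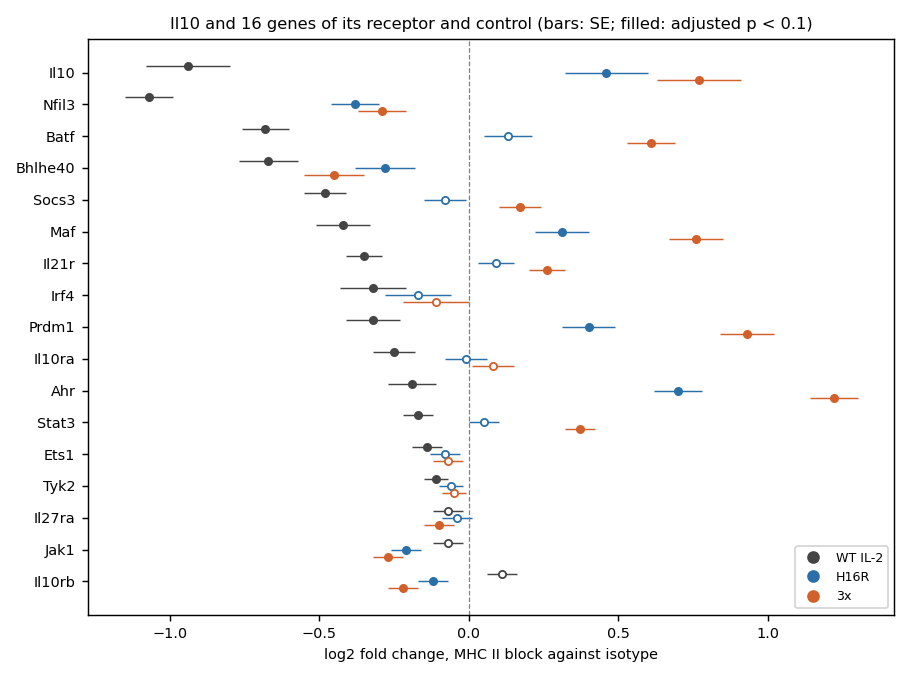
Log2 fold change (horizontal axis) of MHC II block against isotype in Tregs for Il10 and the 16 genes of its receptor and control, by IL-2 molecule; bars are SE and filled points have an adjusted p under 0.1. With WT IL-2 (dark grey), 13 of the 16 points lie below 0 and passed the test; Prdm1 and Maf lie above 0 with both muteins.

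Ebi3 differed from the other genes in that IL-2 lowered it or left it near its PBS level in isotype mice. Its level was 23.5, 21.9, 19.8 and 19.5 CPM with isotype PBS and 19.5, 15.7, 24.4 and 22.0 CPM with WT IL-2. These groups overlapped, with a log2 difference of -0.02 (95% interval -0.26 to 0.22, adjusted p = 0.894). With H16R it was 14.3, 17.3, 12.1 and 14.8 CPM and with 3x 12.0, 15.8, 14.7 and 12.5 CPM, all below all 4 PBS mice. The fall was 1.39-fold with H16R (log2 -0.48, SE 0.12, adjusted p = 0.00104) and 1.48-fold with 3x (log2 -0.57, SE 0.12, adjusted p = 0.000158). With both libraries rich in B cell transcripts left out, these were -0.42 (adjusted p = 0.00677) and -0.51 (adjusted p = 0.00132). Dendritic cells also use Ebi3. In isotype mice their 6 markers summed to 23.9 to 48.4 CPM with PBS and 11.2 to 15.2 CPM with WT IL-2. With H16R they summed to 5.91 to 8.43 CPM and with 3x to 6.96 to 9.73 CPM. In blocked mice the sums were 19.7 to 32.6, 27.9 to 95.6, 21.3 to 32.5 and 21.7 to 30.6 CPM in the same order. Their part in the Ebi3 levels of Tregs was not tested.

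MHC II block lowered Ebi3 in PBS-treated mice, to 16.6, 16.2, 16.8 and 14.5 CPM, below all isotype PBS mice (log2 -0.42, SE 0.12, adjusted p = 0.0229). With both libraries high in B cell transcripts left out, this difference was -0.36 (adjusted p = 0.0648). Blocked mice given WT IL-2 had 20.0, 20.3, 17.0 and 22.1 CPM, higher than blocked PBS mice (log2 0.36, SE 0.12, adjusted p = 0.0227) and within the isotype WT IL-2 range (log2 -0.05, 95% interval -0.28 to 0.19, adjusted p = 0.806). Blocked mice given H16R had 11.3, 11.4, 12.5 and 11.9 CPM, and those given 3x had 9.43, 11.4, 8.59 and 9.17 CPM. Both mutein groups lay below all blocked PBS mice, by -0.39 for H16R (adjusted p = 0.00675) and -0.70 for 3x (adjusted p = 9.89e-06). Against isotype, block lowered Ebi3 by -0.55 with 3x (SE 0.12, adjusted p = 0.000451) and by -0.33 with H16R (SE 0.12, adjusted p = 0.0436); the latter was not called without isotype H16R replicate 2 (-0.25, adjusted p = 0.158) or after thinning to equal depth (-0.28, adjusted p = 0.124).

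Ebi3 was the gene that separated both muteins from WT IL-2 in both arms. With isotype it was lower by -0.45 with H16R (SE 0.12, adjusted p = 0.0107) and by -0.55 with 3x (SE 0.12, adjusted p = 0.000824) than with WT IL-2. In blocked mice the differences were -0.74 (SE 0.12, adjusted p = 1.54e-05) and -1.05 (SE 0.12, adjusted p = 2.53e-08). The muteins differed from each other by -0.09 with isotype (95% interval -0.33 to 0.15, adjusted p = 0.722). Under block 3x was lower than H16R by -0.31 (SE 0.12, adjusted p = 0.0711), a call lost without MHC II block H16R replicate 3 (-0.28) or 4 (-0.31) or MHC II block 3x replicate 1 (-0.30), 3 (-0.26) or 4 (-0.29). It was also lost with no filter on low counts (-0.30, adjusted p = 0.11) and with all biotypes (-0.29, adjusted p = 0.1). Leaving out both libraries rich in B cell transcripts gave -0.73 and -1.04 for H16R and 3x against WT IL-2 under block and 0.35 for WT IL-2 against PBS, all called. Of the interactions, that of 3x against WT IL-2 was called (-0.50, SE 0.16, adjusted p = 0.0182). The interaction of WT IL-2 against PBS, 0.38 (95% interval 0.04 to 0.71, adjusted p = 0.132), was called only when isotype WT IL-2 replicate 3a (0.47, adjusted p = 0.0532) or MHC II block WT IL-2 replicate 3 (0.45, adjusted p = 0.0649) was left out. Its lowest value was 0.24 (adjusted p = 0.333), without isotype WT IL-2 replicate 2, and it was 0.31 (adjusted p = 0.247) without both libraries rich in B cell transcripts.

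By mean FPKM, Ebi3 was highest in isotype PBS (18.2 ± 1.61), isotype WT IL-2 (17.5 ± 3.18) and MHC II block WT IL-2 (17 ± 1.83). MHC II block PBS (13.7 ± 0.903) came next, below MHC II block WT IL-2 without overlap but within reach of isotype WT IL-2, whose lowest library was at 13.5 FPKM. The order went on through isotype H16R (12.5 ± 1.84), isotype 3x (11.8 ± 1.56) and MHC II block H16R (10.1 ± 0.47) to MHC II block 3x (8.29 ± 1.05), and in each other pair of neighbours the libraries overlapped. Part of the Ebi3 signal is shared with an antisense gene: only 10.4% of its expected counts were whole (within 1e-06), against 100% for the other 4 genes. The RNA Gm16712 overlaps Ebi3 on the opposite strand, and it was assigned 8.2% to 19.6% of the summed counts of the pair. The sum of both was whole (within 0.001) in 24 of 48 libraries, so that in the other libraries Gm16712 alone did not account for the fractions. The libraries were made with a stranded kit, but whether counting used strand is not given in the sources used here, so Ebi3 levels are uncertain. Fgl2 lies within Ccdc146 on the opposite strand, which had at most 16 counts in a Treg library.

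The genes whose products pair with Ebi3 were near the lowest levels measured. Il12a, the partner in IL-35, had 0 to 57 expected counts in Treg libraries, a median of 0.144 FPKM against 13.5 FPKM for Ebi3, and did not pass the filter on low counts in Tregs. Its highest Treg value, 1.43 FPKM, came from a library of the MHC II block WT IL-2 group, and it was above most Tregs in Tcons (0.274 to 1.82 FPKM). Il27, the partner in IL-27, had 0 to 22 counts in Tregs, and Il12b and Il23a, other subunits of the family, had at most 29 and 5. A count of 0, seen in 1 Treg library for Il12a and in 9 for Il27, bounds the level but does not show absence. Of the receptor genes of the family, Il12rb2 was 0.857 ± 0.0942 FPKM with isotype 3x and 4.87 ± 0.672 FPKM with MHC II block 3x, and it rose under MHC II block with WT IL-2 (log2 1.40), H16R (2.41) and 3x (2.45). Of the 10 genes on this list 5 were tested in Tregs: 2 rose and 1 fell under MHC II block with WT IL-2 and with H16R, and 2 rose and 2 fell with 3x, where 33.6%, 30.7% and 54.1% of all genes were called in the same order. Those not tested were Il12a, Il12b, Il23a, Il27 and Il6st. Il6st was at 219 to 329 CPM in Tregs, so a low level was not why it was left out.

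Fgl2 was the lowest of the 5 genes per length in PBS-treated Tregs, at 6.13 ± 1.24 FPKM with isotype. Its level was 18.1, 23.4, 22.6 and 29.7 CPM with isotype PBS and 44.0, 40.4, 43.4 and 35.9 CPM with WT IL-2. It was 50.2, 44.6, 45.1 and 42.4 CPM with H16R and 45.7, 35.9, 46.9 and 39.4 CPM with 3x. All IL-2-treated mice were above all PBS mice, with rises of 1.80-fold (log2 0.85, SE 0.11, adjusted p = 3.49e-07), 2.06-fold (1.04, SE 0.11, adjusted p = 4.47e-09) and 1.88-fold (0.91, SE 0.11, adjusted p = 4.68e-08). Without both libraries rich in B cell transcripts the rises were 0.74, 0.93 and 0.80, all called. With isotype no difference between the 3 molecules was called: H16R and WT IL-2 differed by 0.19 (95% interval -0.02 to 0.40), 3x and WT IL-2 by 0.06 (-0.15 to 0.27) and 3x and H16R by -0.13 (-0.33 to 0.08), with adjusted p of 0.239, 0.692 and 0.531.

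Under MHC II block the molecules separated. Fgl2 was at 18.0, 20.3, 21.8 and 17.5 CPM with PBS and at 50.6, 41.7, 42.8 and 44.3 CPM with WT IL-2. It was at 56.5, 54.0, 63.6 and 53.6 CPM with H16R and at 67.9, 55.7, 59.7 and 62.6 CPM with 3x, so that each mutein-treated mouse was above each WT IL-2-treated mouse. H16R exceeded WT IL-2 by 0.36 (SE 0.10, adjusted p = 0.00514) and 3x by 0.45 (SE 0.10, adjusted p = 0.000459), while 3x and H16R differed by 0.09 (95% interval -0.12 to 0.29, adjusted p = 0.617). The interactions with the antibody were 0.57 for H16R (SE 0.15, adjusted p = 0.016) and 0.78 for 3x (SE 0.15, adjusted p = 0.000393). Against WT IL-2, the interaction was 0.38 for 3x (SE 0.14, adjusted p = 0.0381) and 0.17 for H16R (95% interval -0.12 to 0.46, adjusted p = 0.429). Without both libraries rich in B cell transcripts the differences from WT IL-2 were 0.42 and 0.51 and the interactions over PBS 0.68 and 0.89, for H16R and 3x, all called.

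Fgl2 under MHC II block against isotype was higher with 3x (0.51, SE 0.10, adjusted p = 0.000204) and with H16R (0.29, SE 0.10, adjusted p = 0.0383), and with WT IL-2 the difference was 0.12 (95% interval -0.08 to 0.33, adjusted p = 0.399). The H16R call was lost without isotype H16R replicate 4 (0.26, adjusted p = 0.116) or MHC II block H16R replicate 3 (0.24, adjusted p = 0.147). With PBS it was -0.27 (95% interval -0.50 to -0.05, adjusted p = 0.127), and -0.39 (adjusted p = 0.0227) without isotype PBS replicate 1 and -0.34 (adjusted p = 0.0893) without MHC II block PBS replicate 3. Without isotype PBS replicate 4 it was -0.14 (adjusted p = 0.449). It was called by DESeq2 (-0.28, adjusted p = 0.0864) and without both libraries rich in B cell transcripts (-0.39, adjusted p = 0.0167). The WT IL-2 interaction of 0.40 (SE 0.15, adjusted p = 0.078) was called, but 11 of the 32 omissions of a single library ended the call. Its lowest value was 0.26 (adjusted p = 0.253), without isotype PBS replicate 4. It was also not called without isotype PBS replicate 2 (0.39), isotype WT IL-2 replicate 2 (0.36) or 3b (0.34), MHC II block PBS replicate 1 (0.36) or 4 (0.35), MHC II block WT IL-2 replicate 1 (0.33) or 4 (0.40), or MHC II block 3x replicate 1, 3 or 4 (0.37 each). The call was lost too with no filter on low counts (0.36, adjusted p = 0.147), with all biotypes (0.38, adjusted p = 0.13), by limma with a pseudocount of 1 (0.34, adjusted p = 0.102) and with only the groups compared in the fit (0.39, adjusted p = 0.154). With both libraries rich in B cell transcripts left out, it was 0.44 (adjusted p = 0.0347).

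In the order of mean FPKM, MHC II block 3x (16.1 ± 1.34) and MHC II block H16R (14.9 ± 1.22) overlapped each other and stood above isotype H16R (11.9 ± 0.856). That group, MHC II block WT IL-2 (11.7 ± 1.04), isotype 3x (11 ± 1.36) and isotype WT IL-2 (10.7 ± 0.969) overlapped in turn, and both PBS groups, at 6.13 ± 1.24 and 5.07 ± 0.525, stood below them. Fgl2 is also used by myeloid cells, so the 11 myeloid markers are set beside it: they summed to 40.6 to 164 CPM with isotype PBS, 19.3 to 42.5 CPM with isotype and an IL-2 molecule, 26.3 to 43.0 CPM with MHC II block PBS and 46.2 to 867 CPM with MHC II block and an IL-2 molecule. In isotype mice Fgl2 rose with IL-2 while the median of these sums was lower, and under MHC II block both were higher with WT IL-2 and with the muteins than with PBS. Their part in the Fgl2 levels was not tested. The Fgl2 receptor gene Fcgr2b, a B cell and myeloid gene, was at 3.31 ± 2.51 FPKM with isotype PBS and 0.266 ± 0.0978 FPKM with isotype 3x. Of the list of 6 receptor and fibrinogen family genes, Fcgr2b and Fcgr3 alone passed the filter: both fell with each mutein in isotype mice, and both were higher under MHC II block with all 3 molecules. Of all genes, 32.8% and 32.3% were called lower with H16R and 3x, and 18.2%, 15.4% and 27.2% higher under block with WT IL-2, H16R and 3x.

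Entpd1, encoding CD39, rose with every IL-2 molecule in both arms. Its level was 37.4, 37.0, 36.6 and 40.9 CPM with isotype PBS and 38.8, 38.3, 38.0 and 34.6 CPM with MHC II block PBS. These groups overlapped, and differed by -0.04 on the log2 scale (95% interval -0.19 to 0.12, adjusted p = 0.807). In isotype mice it was 56.5, 53.5, 54.9 and 57.4 CPM with WT IL-2, 61.0, 56.4, 61.2 and 60.6 CPM with H16R and 60.0, 49.7, 57.1 and 62.0 CPM with 3x. All were above all PBS mice, by 0.58 (SE 0.07, adjusted p = 3.35e-07), 0.73 (SE 0.07, adjusted p = 3.16e-09) and 0.65 (SE 0.07, adjusted p = 2.4e-08). The 3 molecules overlapped in this arm, with differences of 0.14 (95% interval -0.01 to 0.29) for H16R and 0.07 (-0.08 to 0.21) for 3x against WT IL-2 and of -0.07 (-0.22 to 0.07) between 3x and H16R, and adjusted p of 0.205, 0.517 and 0.624. That of H16R against WT IL-2 was called when only these groups were fitted (0.14, adjusted p = 0.0556). Leaving out both libraries rich in B cell transcripts gave rises of 0.58, 0.72 and 0.65 over PBS.

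Blocked mice had Entpd1 at 67.4, 53.2, 50.1 and 56.5 CPM with WT IL-2, at 77.2, 79.4, 80.2 and 78.7 CPM with H16R and at 78.6, 66.3, 75.2 and 80.1 CPM with 3x. The H16R mice were above all WT IL-2 mice, and 3 of 4 3x mice were. The WT IL-2 group had the widest SD of Entpd1 in Tregs (7.55 CPM), and its value of 67.4 CPM came from the library rich in B cell and myeloid transcripts. H16R exceeded WT IL-2 by 0.49 (SE 0.07, adjusted p = 5.28e-06) and 3x by 0.39 (SE 0.07, adjusted p = 3.48e-05), and 3x and H16R differed by -0.09 (95% interval -0.24 to 0.05, adjusted p = 0.4). MHC II block against isotype raised Entpd1 with H16R (0.37, SE 0.07, adjusted p = 0.000689) and with 3x (0.35, SE 0.07, adjusted p = 0.000251), and with WT IL-2 the difference was 0.02 (95% interval -0.12 to 0.17, adjusted p = 0.84). The interactions over PBS were 0.41 for H16R (adjusted p = 0.0119), 0.39 for 3x (adjusted p = 0.00618) and 0.06 for WT IL-2 (95% interval -0.15 to 0.27, adjusted p = 0.753). Those over WT IL-2 were 0.35 for H16R (adjusted p = 0.0229) and 0.32 for 3x (adjusted p = 0.0134). Without both libraries rich in B cell transcripts H16R and 3x exceeded WT IL-2 by 0.58 and 0.49 under block, the rise over PBS with WT IL-2 was 0.55 and the interactions over WT IL-2 were 0.44 and 0.42, all called.

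By mean FPKM Entpd1 was at 24.8 ± 0.291 with MHC II block H16R and 23.1 ± 1.91 with MHC II block 3x, which overlapped. The H16R group stood above the other 6 groups, while the lowest 3x library (20.6 FPKM) was below the highest of MHC II block WT IL-2 (22.1 FPKM). Isotype H16R (18.6 ± 0.435), MHC II block WT IL-2 (18.1 ± 2.91), isotype WT IL-2 (17.5 ± 0.699) and isotype 3x (17.2 ± 1.59) overlapped in turn. Both PBS groups, at 11.5 ± 0.412 and 11.4 ± 0.382, overlapped each other below them.

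Nt5e, encoding CD73, was the most expressed of the 5 genes per length in PBS-treated Tregs. In the fit of all Treg libraries none of its differences from PBS exceeded 0.60 in size on the log2 scale. Its level was 212, 226, 244 and 289 CPM with isotype PBS and 329, 439, 329 and 342 CPM with WT IL-2, with no overlap. It was 314, 291, 254 and 321 CPM with H16R and 241, 261, 261 and 238 CPM with 3x, both overlapping the PBS range. The rise was 1.52-fold with WT IL-2 (log2 0.60, SE 0.10, adjusted p = 1.02e-05) and 1.27-fold with H16R (0.35, SE 0.10, adjusted p = 0.00263), and with 3x the difference was 0.10 (95% interval -0.09 to 0.30, adjusted p = 0.371). The rises were 0.55 and 0.29, both called, without both libraries rich in B cell transcripts. The 3x difference became 0.20 (adjusted p = 0.085) without isotype PBS replicate 4 and 0.04 without isotype PBS replicate 1 (adjusted p = 0.727), and it was 0.04 (adjusted p = 0.675) without both libraries rich in B cell transcripts, isotype PBS replicate 1 and MHC II block WT IL-2 replicate 1.

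Under MHC II block, Nt5e was at 249, 266, 246 and 256 CPM with PBS, at 178, 253, 259 and 225 CPM with WT IL-2 and at 262, 242, 241 and 250 CPM with H16R, and these ranges overlapped. With 3x it was at 223, 225, 216 and 215 CPM, below all 4 PBS mice. Against PBS the differences were -0.11 with WT IL-2 (95% interval -0.30 to 0.09, adjusted p = 0.425), 0.03 with H16R (-0.17 to 0.22, adjusted p = 0.825) and -0.18 with 3x (-0.37 to 0.02, adjusted p = 0.103). The 3x difference lay close to the threshold. It was called without isotype PBS replicate 1 (-0.18, adjusted p = 0.0921) or 4 (-0.17, adjusted p = 0.0824), isotype WT IL-2 replicate 2 (-0.16, adjusted p = 0.088), isotype H16R replicate 3 (-0.18, adjusted p = 0.0936), or MHC II block WT IL-2 replicate 1 (-0.18, adjusted p = 0.056), 2 (-0.18, adjusted p = 0.0964) or 3 (-0.18, adjusted p = 0.0957). None of these libraries belongs to the groups compared. Over all single omissions the weakest value was -0.14 (adjusted p = 0.234), without MHC II block PBS replicate 2. When replicate numbers were entered as a block, the 3x difference was -0.17 (adjusted p = 0.0948). It was also called with only the groups compared in the fit (-0.17, adjusted p = 0.00164), with total counts in place of TMM (-0.21, adjusted p = 0.0587), by limma on log2 FPKM with a pseudocount of 1 (-0.21, adjusted p = 0.0641) or 0.1 (-0.21, adjusted p = 0.0613), and without both libraries rich in B cell transcripts (-0.18, adjusted p = 0.045). For WT IL-2 the difference without both was -0.01 (adjusted p = 0.962).

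MHC II block lowered Nt5e in WT IL-2-treated mice 1.58-fold (log2 -0.66, SE 0.10, adjusted p = 1.16e-05), and no blocked mouse reached the isotype range. Without the MHC II block WT IL-2 and isotype PBS libraries rich in B cell transcripts the difference was -0.56 (adjusted p = 2.88e-05). With H16R it was -0.27 (SE 0.10, adjusted p = 0.0397), with 3x -0.23 (SE 0.10, adjusted p = 0.0498) and with PBS 0.05 (95% interval -0.15 to 0.25, adjusted p = 0.802). The H16R call was lost without isotype H16R replicate 1 (-0.24, adjusted p = 0.1) or 4 (-0.23, adjusted p = 0.131) or MHC II block H16R replicate 3 (-0.26, adjusted p = 0.1). The 3x call was lost without isotype 3x replicate 2 (-0.21, adjusted p = 0.109) or 3 (-0.21, adjusted p = 0.114), and also with total counts in place of TMM (-0.19, adjusted p = 0.121), with no filter on low counts (-0.20, adjusted p = 0.121), with all biotypes (-0.18, adjusted p = 0.14) and by limma on log2 FPKM with a pseudocount of 1 (-0.18, adjusted p = 0.136) or 0.1 (-0.18, adjusted p = 0.128). The interaction of WT IL-2 and antibody was -0.71 (SE 0.13, adjusted p = 0.0007). Against WT IL-2 the interactions were 0.39 for H16R (SE 0.13, adjusted p = 0.0507) and 0.43 for 3x (SE 0.13, adjusted p = 0.0136). Without both libraries rich in B cell transcripts these 3 interactions were -0.55, 0.29 and 0.33, all called.

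The interactions of the muteins over PBS were not called for Nt5e, at -0.32 for H16R (SE 0.13, adjusted p = 0.113) and -0.28 for 3x (SE 0.13, adjusted p = 0.117). Both were called without isotype PBS replicate 4 (-0.41 and -0.37), isotype WT IL-2 replicate 2 (-0.33 and -0.29) or MHC II block WT IL-2 replicate 1 (-0.32 and -0.28), and that of H16R also without isotype H16R replicate 3 (-0.38) and after thinning to equal depth (-0.37). With only the groups compared in the fit both were called (-0.32 and -0.28). Without isotype PBS replicate 1 they were -0.27 and -0.22, neither called. Among the molecules with isotype, 3x was lower than WT IL-2 by -0.50 (SE 0.10, adjusted p = 0.000293). H16R was lower by -0.25 (SE 0.09, adjusted p = 0.0763), a call lost without isotype WT IL-2 replicate 2 (-0.14, adjusted p = 0.372) or isotype H16R replicate 2 (-0.24, adjusted p = 0.128) or 3 (-0.19, adjusted p = 0.3). It was lost as well with no filter on low counts (-0.25, adjusted p = 0.111), with all biotypes (-0.25, adjusted p = 0.108) and with only the groups compared in the fit (-0.26, adjusted p = 0.112). Isotype WT IL-2 replicate 2, at 439 CPM, was the highest Treg library for Nt5e.

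Between 3x and H16R, Nt5e differed by -0.25 with isotype (95% interval -0.44 to -0.05, adjusted p = 0.115) and by -0.20 with MHC II block (-0.40 to -0.01, adjusted p = 0.145). The isotype difference was called without isotype PBS replicate 1 (-0.25) or 4 (-0.24), isotype WT IL-2 replicate 2 (-0.24), isotype H16R replicate 3 (-0.31) or MHC II block WT IL-2 replicate 1 (-0.25), and it was -0.20 without isotype H16R replicate 4, not called. DESeq2 called it (-0.25, adjusted p = 0.081). The difference under MHC II block was called without isotype WT IL-2 replicate 2 (-0.20) or MHC II block WT IL-2 replicate 1 (-0.20). In both arms it was called with only the groups compared in the fit (-0.25, adjusted p = 0.0303, and -0.21, adjusted p = 0.0105) and without both libraries rich in B cell transcripts (-0.25, adjusted p = 0.0416, and -0.20, adjusted p = 0.0624). Under block, H16R and WT IL-2 differed by 0.13 (-0.06 to 0.33, adjusted p = 0.246) and 3x and WT IL-2 by -0.07 (-0.26 to 0.13, adjusted p = 0.54), the latter called without MHC II block WT IL-2 replicate 1 (-0.17, adjusted p = 0.0987) or without both libraries rich in B cell transcripts (-0.17, adjusted p = 0.082), and at -0.01 without MHC II block WT IL-2 replicate 2. By mean FPKM, isotype WT IL-2 (89.3 ± 13.2) stood above isotype H16R (73.2 ± 7.58), and the other 6 groups followed with overlap in turn, from MHC II block PBS (63.1 ± 2.19) to MHC II block 3x (54.5 ± 1.27).

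Of the 30 pairs of gene and comparison between molecules, 15 were called. With isotype 2 of 5 genes were called for H16R against WT IL-2, 3 for 3x against WT IL-2 and 1 for 3x against H16R, where 18.6% (8.87% higher, 9.76% lower), 34.7% (16.9% and 17.7%) and 11.5% (5.76% and 5.77%) of all genes were called. The members called in this arm were all lower in the molecule named first. In blocked mice 4, 4 and 1 of 5 genes were called, where 57.5% (25.5% higher, 32.0% lower), 68.7% (30.0% and 38.7%) and 25.2% (12.7% and 12.5%) of all genes were called. In both comparisons with WT IL-2 in that arm, Il10, Fgl2 and Entpd1 were higher and Ebi3 was lower with the mutein. The called differences between the muteins were Il10 with isotype and Ebi3 with MHC II block, both lower with 3x.

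Around CD39 and CD73, a list of 22 genes of extracellular nucleotide and adenosine handling had 16 members that passed the filter in Tregs. It was also drawn up with earlier results of these data known. In isotype mice 5 rose and 3 fell with WT IL-2, 6 rose and 2 fell with H16R, and 4 rose and 2 fell with 3x, with medians of 0.08, 0.05 and 0.04 against -0.01 for all genes, of which 52.2%, 64.2% and 63.6% were called. In blocked mice 7 rose and 1 fell, 8 rose and 2 fell, and 9 rose and 4 fell, with medians of 0.10, 0.13 and 0.18 against 0.02, -0.02 and -0.04 for all genes, of which 35.6%, 66.5% and 73.0% were called. Enpp1, an ectoenzyme that hydrolyses ATP, rose with each molecule in each arm, by 0.51 to 0.74. Slc29a2, a nucleoside transporter, fell with each molecule in each arm, from 1.32 ± 0.342 FPKM with isotype PBS to 0.454 ± 0.0426 FPKM with H16R (log2 -1.46). Adora2a, the adenosine receptor gene, rose in isotype mice with WT IL-2 (0.50) and H16R (0.30), and MHC II block lowered it in WT IL-2-treated mice (-0.64), from 45.8 ± 2.84 to 29.5 ± 2.37 FPKM.

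A list of 14 other Treg suppressor genes, for contact-dependent and cytotoxic molecules and for TGF-β and galectins, was set beside the 5. All 14 passed the filter, and this list too was drawn up with earlier results of these data known. In isotype mice 11 rose and 1 fell with WT IL-2 (median 1.21), 12 rose and 0 fell with H16R (1.09), and 12 rose and 1 fell with 3x (0.76), where the median of all genes was -0.01 and 52.2%, 64.2% and 63.6% were called. Under MHC II block against isotype, 10 fell and 1 rose with WT IL-2 (median -0.50), 7 rose and 2 fell with H16R (0.23), and 9 rose and 3 fell with 3x (0.74), where 33.6%, 30.7% and 54.1% of all genes were called and their medians were 0.01, 0.00 and 0.00. Lag3, an inhibitory receptor gene, fell by 0.84 in this comparison with WT IL-2 and rose by 1.13 with H16R and by 1.94 with 3x. Areg, encoding the repair factor amphiregulin, fell with all 3, by 1.54, 0.83 and 0.72. Prf1, encoding perforin, rose with all 3, by 1.10, 1.49 and 1.72, and was lower in Tregs than in Tcons (-1.75). The 5 NK cell markers moved beside it. In Tregs they summed to 10.0 to 23.6 CPM with isotype and an IL-2 molecule and 23.5 to 67.5 CPM with block and an IL-2 molecule. In Tcons they summed to 71.1 to 235 CPM. Their part in the Prf1 levels was not tested.

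Genes with the most similar pattern to each of the 5 over the 8 Treg group means were found by Pearson r of log2 CPM among 9506 other genes above 5 CPM. For Il10 they were Trp53i11 (r = 0.994), Bin3 (0.993) and Trim46 (0.991), and for Ebi3 Stard5 (0.982), Tbc1d5 (0.969) and Btg2 (0.965). For Fgl2 they were Ccr3 (0.993), Fuca2 (0.982) and Cers2 (0.982), for Nt5e Kif13a (0.984), Rdh12 (0.947) and Cep112 (0.943), and for Entpd1 Rnf14 (0.991) and Smpd1 (0.991). Among the 5 genes themselves, Fgl2 and Entpd1 had r = 0.98, Il10 had 0.94 with Fgl2 and 0.95 with Entpd1, Ebi3 had -0.62, -0.60 and -0.70 with these 3, and Nt5e ranged from -0.08 to 0.37 with the others. These values rest on 8 points that share their libraries, and no test was made of them.

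In the 16 mice with both cell types, all 5 genes were higher in Tregs than in Tcons, with the mouse as a block: Il10 6.70-fold (log2 2.74, SE 0.09), Nt5e 2.81-fold (1.49, SE 0.07), Ebi3 2.70-fold (1.43, SE 0.04), Entpd1 1.93-fold (0.95, SE 0.02) and Fgl2 1.23-fold (0.29, SE 0.04), with adjusted p from 5.78e-13 for Entpd1 to 4.43e-06 for Fgl2. Of 12844 genes tested 82.5% were called in this comparison (41.7% higher, 40.8% lower). In PBS-treated mice alone all 5 were also called, where 55.5% of genes were (26.4% higher, 29.1% lower), and in IL-2-treated mice all 5, where 82.8% were (42.5% and 40.2%). The gap differed between these: with IL-2 it was larger for Il10 (3.05 against 1.81, difference 1.24, SE 0.21, adjusted p = 0.000683) and Nt5e (1.66 against 0.98, difference 0.68, SE 0.16, adjusted p = 0.00548) and smaller for Fgl2 (0.15 against 0.72, difference -0.57, SE 0.09, adjusted p = 0.000322). For Ebi3 the difference was -0.25 (SE 0.09, adjusted p = 0.0419), not called without the mouse MHC II block PBS replicate 2 (-0.22, adjusted p = 0.154) or by DESeq2 (-0.27, adjusted p = 0.124), and for Entpd1 it was -0.02 (95% interval -0.14 to 0.10, adjusted p = 0.834). In this test of the difference 4 of 5 genes were called, where 51.0% of all genes were (27.1% positive, 23.8% negative). The Fgl2 gap in IL-2-treated mice was 0.06 and not called with total counts in place of TMM (adjusted p = 0.157) or by limma on log2 FPKM with a pseudocount of 1 (adjusted p = 0.175) or 0.1 (adjusted p = 0.203). Markers of other cells differed between the fractions as well. Of the B cell markers 8 of 8 were lower in Tregs (median log2 difference -1.71), as were 6 of 6 dendritic cell (-2.12), 9 of 11 myeloid (-1.46) and 5 of 5 NK cell markers (-2.29). The plasma cell markers were 4 of 5 higher in Tregs of PBS-treated mice (median 0.56) and 5 of 5 lower in IL-2-treated mice (-0.90), and 5 of 5 were called for the difference between these (-1.29). Tcons also still held Treg transcripts. The part of these markers in the gaps was not tested.

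**Figure D5:**
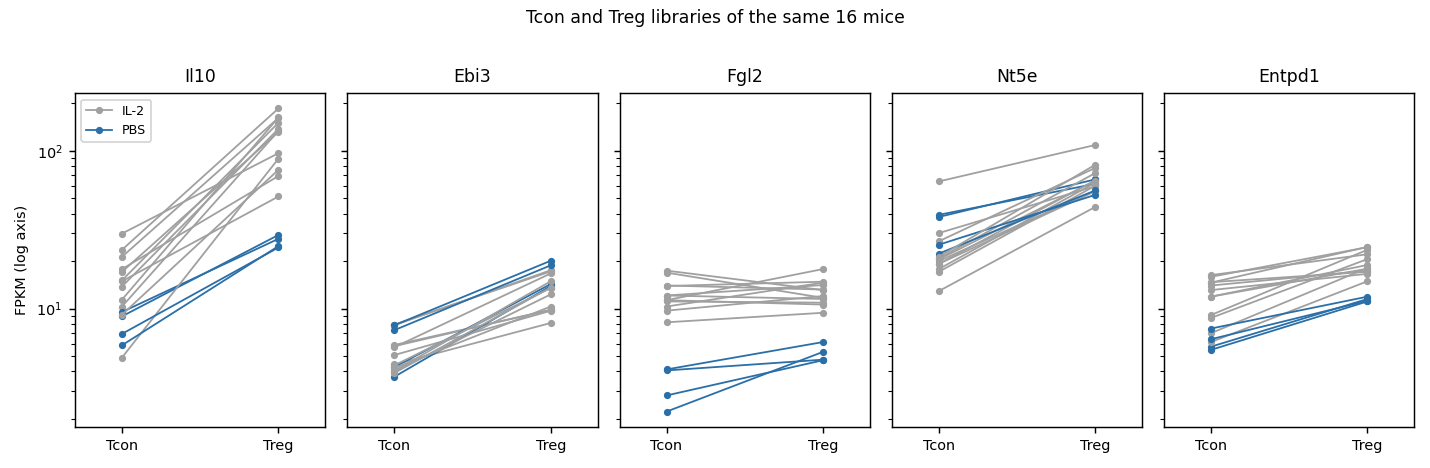
FPKM (log axis) of the 5 genes in the Tcon and the Treg library of each of 16 mice, joined by a line, with PBS-treated mice in blue and IL-2-treated mice in grey. Il10 lay at 4.89 to 29.9 FPKM in Tcons and Nt5e at 12.9 to 64 FPKM.

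Within Tcons, Fgl2 changed most. Its level was 15.5 and 15.7 CPM with isotype PBS and 10.8 and 8.48 CPM with MHC II block PBS, and 31.3 to 66.6 CPM in the 12 libraries with an IL-2 molecule. In isotype mice it was 46.5 and 43.3 CPM with WT IL-2, 66.6 and 64.5 CPM with H16R and 37.1 and 31.3 CPM with 3x, and with MHC II block 53.5 and 42.5, 53.1 and 46.2, and 43.3 and 39.3 CPM. Taken over both arms, Fgl2 rose 3.77-fold with WT IL-2 (log2 1.92, SE 0.17, adjusted p = 7.37e-05), 4.56-fold with H16R (2.19, SE 0.17, adjusted p = 7.02e-06) and 3.03-fold with 3x (1.60, SE 0.16, adjusted p = 0.000274). The Fgl2 level in IL-2-treated Tcons thus overlapped that in IL-2-treated Tregs, 35.9 to 67.9 CPM. The 11 myeloid markers in Tcons summed to 181 to 202 CPM with isotype PBS, 65.0 to 146 CPM with isotype and an IL-2 molecule, 53.0 to 53.9 CPM with MHC II block PBS and 218 to 916 CPM with MHC II block and an IL-2 molecule. In the isotype arm Fgl2 was thus higher with lower myeloid markers, while in the blocked arm both were higher, and their part was not tested. Without isotype WT IL-2 replicate 2 the rises were 1.99, 2.19 and 1.61, all called.

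Entpd1 in Tcons rose with WT IL-2 and H16R. It was 23.6 and 20.8 CPM with isotype PBS, 41.1 and 40.4 CPM with WT IL-2, 35.9 and 36.9 CPM with H16R and 21.7 and 19.4 CPM with 3x. In blocked mice it was 18.2 and 17.0, 49.5 and 43.3, 45.9 and 44.9, and 27.6 and 25.2 CPM in the same order. The fitted rise was 2.19-fold with WT IL-2 (1.13, SE 0.11, adjusted p = 0.000241) and 2.03-fold with H16R (1.02, SE 0.11, adjusted p = 0.000207), and 0.22 on the log2 scale with 3x (95% interval -0.03 to 0.46, adjusted p = 0.27). Without isotype WT IL-2 replicate 2 these were 1.15, 1.02 and 0.22, of which the first and second were called. The plasma cell markers moved beside Entpd1 in Tcons: 5 of 5 were called higher for WT IL-2 (median log2 1.31) and for H16R (1.07), and 0 of 5 for 3x (-0.22), where 27.2%, 31.1% and 9.88% of all genes were called. Their sum in isotype mice was 966 to 1373 CPM with PBS, 1518.7 to 2928 CPM with WT IL-2, 1832.3 to 2032.6 CPM with H16R and 401 to 506 CPM with 3x. In blocked mice it was 819 to 1185.4, 2675.8 to 2762, 1914.7 to 1932.2 and 946 to 1350.3 CPM in the same order. Other markers moved differently. In isotype mice the B cell markers summed to 1071.1 to 1199.2 CPM with PBS and 175 to 525 CPM with an IL-2 molecule. The myeloid markers summed to 181 to 202 and 65.0 to 146 CPM in the same order. In blocked mice the B cell sums were 178 to 188 and 160 to 379 CPM, and the myeloid sums 53.0 to 53.9 and 218 to 916 CPM. The part of these markers in the Entpd1 levels was not tested.

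Il10 in Tcons was 9.14 and 7.74 CPM with isotype PBS, 22.6 and 39.5 CPM with WT IL-2, 20.0 and 18.2 CPM with H16R and 12.1 and 6.47 CPM with 3x. In blocked mice it was 12.6 and 11.8, 19.8 and 23.5, 28.2 and 31.2, and 15.0 and 13.6 CPM. It rose 2.67-fold with WT IL-2 (1.42, SE 0.26, adjusted p = 0.00437) and 2.34-fold with H16R (1.23, SE 0.26, adjusted p = 0.00643), and differed by 0.18 with 3x (95% interval -0.37 to 0.73, adjusted p = 0.72). The highest value, 39.5 CPM, was isotype WT IL-2 replicate 2, the Tcon library with the most Treg transcripts, and without it the differences were 1.07, 1.23 and 0.18 for WT IL-2, H16R and 3x, of which the first and second were called. Beside this rise stood that of the plasma cell markers, of which 5, 5 and 0 of 5 were called higher in the same order, and B lineage cells also use Il10. Of Foxp3, Il2ra and Ikzf2, 1, 2 and 1 were called higher (medians 0.52, 0.73 and 0.58). The part of either set in the Il10 levels was not tested.

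Nt5e in that library was 258 CPM, against 86.1 CPM in its replicate and 52.1 to 159 CPM in the other 15 Tcon libraries. With isotype it was 103 and 90.0 CPM with PBS, 108 and 83.8 CPM with H16R and 121 and 82.9 CPM with 3x. In blocked mice it was 159 and 154 CPM with PBS, 52.1 and 71.8 CPM with WT IL-2, 77.4 and 69.0 CPM with H16R and 77.5 and 80.7 CPM with 3x. Blocked PBS Tcons were above all blocked IL-2 Tcons, while isotype groups overlapped. Over both arms the differences against PBS were -0.24 with WT IL-2 (95% interval -1.07 to 0.60, adjusted p = 0.69), -0.66 with H16R (-1.49 to 0.16, adjusted p = 0.219) and -0.56 with 3x (-1.38 to 0.26, adjusted p = 0.406). Without isotype WT IL-2 replicate 2 that of WT IL-2 was -0.85 (adjusted p = 0.0228) and that of H16R -0.61 (adjusted p = 0.0603), while that of 3x was -0.51 (adjusted p = 0.172). Without MHC II block WT IL-2 replicate 1 that of WT IL-2 was 0.03 (adjusted p = 0.968).

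Ebi3 in Tcons moved in opposite directions in the arms. In isotype mice it was 9.13 and 8.50 CPM with PBS and 4.55 to 6.63 CPM in the 6 libraries with an IL-2 molecule. In blocked mice it was 4.96 and 4.30 CPM with PBS and 5.15 to 9.22 CPM in the 6 libraries with an IL-2 molecule. The difference between arms was not tested with 2 mice per group, and in the fit over both arms no molecule was called (log2 0.14, -0.32 and -0.36 with WT IL-2, H16R and 3x, adjusted p = 0.714, 0.376 and 0.429). Without isotype WT IL-2 replicate 2 these were 0.31, -0.30 and -0.34, none called. B cell and dendritic cell markers, of cells that also use Ebi3, differed between the same libraries. The B cell markers summed to 1071.1 to 1199.2 CPM with isotype PBS, 175 to 525 CPM with isotype and an IL-2 molecule, 178 to 188 CPM with MHC II block PBS and 160 to 379 CPM with MHC II block and an IL-2 molecule. The dendritic cell markers summed to 106 to 150, 52.2 to 102, 36.3 to 38.7 and 143 to 239 CPM in the same order, so that they, like Ebi3, were below isotype PBS in every isotype IL-2 library and above blocked PBS in every blocked one. Their part in the Ebi3 levels was not tested. In all, 3 of 5 genes were called in Tcons with WT IL-2 and likewise 3 in H16R-treated mice and 1 in 3x-treated mice, all higher, where 27.2% (14.8% higher, 12.4% lower), 31.1% (16.2% and 14.9%) and 9.88% (4.71% and 5.17%) of 12526 genes were called. For MHC II block against isotype over all treatments edgeR called 0 of 5 genes, with 0 at an unadjusted p under 0.05, where 28.9% of all genes were called (13.8% higher, 15.1% lower), and DESeq2 and limma, fitted with the same terms, also called 0. These fits hold a single block effect for all treatments, so effects of opposite sign can cancel in them. Mean Nt5e was 96.3 CPM with isotype and 156 CPM with block in PBS mice, and 172 and 61.9 CPM in WT IL-2 mice. Mean Ebi3 was 8.82 and 4.63 CPM with PBS, and 5.85 and 9.18 CPM with WT IL-2. Block within each treatment was not tested in Tcons. The estimates were 0.30 for Il10 (95% interval -0.09 to 0.69), 0.12 for Ebi3 (-0.27 to 0.51), -0.19 for Fgl2 (-0.43 to 0.06), -0.39 for Nt5e (-0.99 to 0.20) and 0.12 for Entpd1 (-0.05 to 0.29). Il10 was called without isotype WT IL-2 replicate 2 (0.46, adjusted p = 0.0364) and Entpd1 without isotype PBS replicate 1 (0.17, adjusted p = 0.094). Without isotype 3x replicate 2 they were 0.21 and 0.09, neither called.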

How the data were processed

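RNA of purified splenic Tregs and Tcons was sequenced from paired reads of a stranded mRNA kit. The authors mapped reads onto build B38 (GRCm38) using the OSA aligner of Omicsoft Array Suite and deposited RSEM expected counts, not normalized (72.8% of nonzero values whole within 1e-06), and FPKM values from the same estimates, divided by transcript length and mapped reads. The tables of the authors' own DESeq2 comparisons hold fold changes and adjusted p-values and were not used; 0 columns belonged to other samples. Groups came from the sample labels. The labels give 2 isotype WT IL-2 Treg libraries the same number (3a and 3b here); they were counted as separate mice, which is in doubt, and results without either are among the alternatives. No library pooled mice, and no pair of libraries within a group was a copy (chi-square per gene at least 3.81).

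Expected counts were rounded and fitted in R 4.3.3 with edgeR 4.0.16 (TMM, quasi-likelihood), keeping protein-coding genes above 0.5 CPM in at least 4 libraries with no empty cell. Benjamini-Hochberg adjustment ran over all genes tested, with 0.1 as the threshold, as in the study. One model held the 8 Treg groups; in Treg against Tcon libraries of the same 16 mice, each mouse was a block, since the labels give the libraries of a mouse the same number; Tcons were fitted by treatment plus antibody. SE and 95% intervals come from the F statistic. Self-tests on simulated data, alternatives with DESeq2 1.42.0 and limma 3.58.1, and positions from GENCODE vM21 completed the steps. Named genes are the 5 members, the 3 genes most like each (1 of them is not reported here), and genes of fixed lists; members and lists were chosen with earlier results of these data known.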

Additional observations from a re-analysis of the deposited data

Results flagged for a closer look

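In 40 Treg groups of 4 mice (5 genes by 8 groups), 2 held a library far from the rest by Dixon's criterion, where chance flags about 1 group in 20. They were Nt5e in isotype WT IL-2 replicate 2 (439 CPM) and Entpd1 in isotype H16R replicate 2 (56.4 CPM).

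Effects that differed between antibody arms were called in 17 of 25 interaction tests. Of all genes, 19.7% were called for WT IL-2, 19.1% for H16R and 39.0% for 3x against PBS, and 23.5% for H16R and 43.8% for 3x against WT IL-2. For WT IL-2 against PBS these were Il10 (-0.83), Fgl2 (0.40) and Nt5e (-0.71), as differences of log2 fold changes, MHC II block minus isotype. For H16R against PBS they were Il10 (0.57), Fgl2 (0.57) and Entpd1 (0.41), and for 3x against PBS Il10 (0.88), Fgl2 (0.78) and Entpd1 (0.39). For H16R against WT IL-2 they were Il10 (1.40), Nt5e (0.39) and Entpd1 (0.35). For 3x against WT IL-2 they were Il10 (1.70), Ebi3 (-0.50), Fgl2 (0.38), Nt5e (0.43) and Entpd1 (0.32).

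The gap between Tregs and Tcons differed between IL-2-treated and PBS-treated mice for Il10 (1.24), Ebi3 (-0.25), Fgl2 (-0.57) and Nt5e (0.68), where 51.0% of all genes were called. In Tcons, Ebi3 was lower with every IL-2 molecule than with PBS in each isotype library (log2 ratio of mean CPM -0.80) and higher in each blocked library (0.63); that difference was not tested.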

How the results depend on the processing

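Of 145 pairs of gene and comparison, 96 were called, and under 77 alternatives (tool, scaling, filter, biotypes, empty cells, FPKM values, threshold, thinning, samples fitted, block, libraries left out) 0 of them changed sign with a call. A call was lost under at least 1 alternative for 12 pairs and gained for 15. The count called stayed within 1.5 times its main value in all 6 families of comparisons. Leaving out each library in turn gave 25 to 27 calls of 30 for IL-2 molecules against PBS, 11 to 14 of 20 for MHC II block, 14 to 18 of 30 between molecules, 15 to 18 of 25 for interactions, 18 to 19 of 20 between Tregs and Tcons and 7 to 10 of 20 in Tcons. In Tregs equal replicate numbers mark different mice, and deviations from group means had a median correlation of 0.02 between same-numbered libraries and -0.01 between others. With the replicate block, 26 of 30 pairs against PBS, 13 of 20 for MHC II block, 15 of 30 between molecules, 17 of 25 interactions and 7 of 20 in Tcons were called. Without the mouse as a block, 18 of 20 between Tregs and Tcons were called, and the difference for Ebi3 (-0.25) was lost. Tcon groups held 2 mice each.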
